A study of Sus scrofa with 20 samples.

Results

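Platelet genes were examined in peripheral blood mononuclear cells (PBMC) of weaned piglets: the chemokine gene PPBP, the integrin genes ITGA2B and ITGB3, the glycoprotein genes GP9, GP6 and GP1BB, the tubulin gene TUBB1, SELP (P-selectin), THBS1 (thrombospondin 1) and F13A1 (coagulation factor XIII A). The members were all probe sets that the array's annotation assigns to these 10 genes. They were 18 of the 47845 probe sets, and the probe set with the highest mean over all animals served as the main value of a gene. A filter for expression kept 22127 probe sets in all, 15 of the 18 and the main probe set of each of the 10 genes. To pass, a probe set had to exceed its array's median signal on 80% of the arrays or more, whichever the diet.

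The German Landrace piglets received wheat, barley and soybean diets that differed in phosphorus and calcium: a low (L), a medium (M) and a high (H) mineral diet, of which M held the recommended levels and served as the control. PBMC were collected at 63 days of age, and RNA of each animal was hybridized to 1 array. There were 6 L animals (3 females, 3 males), 7 M animals (4 females, 3 males) and 7 H animals (3 females, 4 males), all males being castrated. The piglets came from few litters, and the labels do not give the litter of an animal. Values are log2 values after Robust Multichip Average (RMA) normalization, so that a difference of 1 is a doubling of the signal. Levels of different probe sets cannot be set against each other. Correlations between any pair of arrays lay between 0.958 and 0.985.

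Platelets are small cell fragments that megakaryocytes shed into the blood. They have no nucleus but carry RNA from their parent cell. They bind to injured vessel walls through glycoprotein receptors, aggregate through an integrin that takes up fibrinogen, and release the content of their granules. PBMC prepared on a density gradient hold lymphocytes and monocytes and usually some platelets, which may be free or attached to leukocytes. In such bulk samples, fewer platelets and less platelet RNA per platelet cannot be told apart.

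The platelet genes differed widely between animals of the same diet, and most of them did so together, whereas none of them differed between diets beyond this spread. The signal of PPBP was 37.6-fold higher in the animal with the highest value than in the one with the lowest. That of ITGB3 spanned 24.2-fold and that of TUBB1 18.4-fold. The lowest values of PPBP and ITGB3, 3.31 and 3.87 in L animal 13, lay above the background level of this array (2.82) but below its median of 4.36, which served as the limit for expression, and those of M animal 20 were below the median of its array too. The exact size of these folds is therefore uncertain. The signal of GP9 was the exception, with a span of 1.5-fold over the same animals. It came from 1 probe set, and without probe sequences it could not be checked whether this probe set detects pig GP9.

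**Figure D1:**
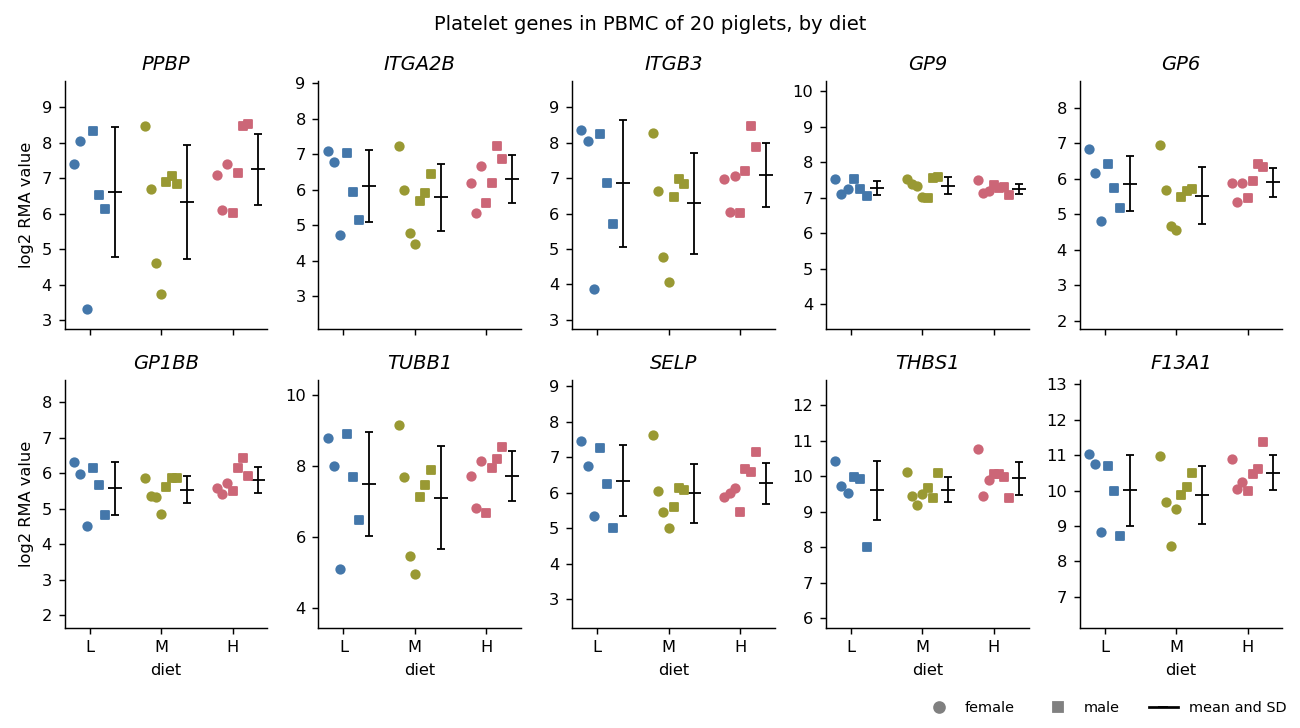
Main probe set of each platelet gene in every animal, as log2 RMA value, for the L, M and H diets. Circles are females, squares are males, and the black mark gives the mean with the SD. The axis of every panel covers the same number of log2 units, the diets overlap in every panel, and the lowest PPBP values, 3.31 and 3.73, belong to 1 L and 1 M animal.

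Among the adhesion receptors, ITGA2B and ITGB3 encode both chains of the fibrinogen receptor of platelets. ITGB3 (probe set SNOWBALL_014403_st) had a lowest, median and highest value of 3.87, 7.46 and 8.37 in L animals, of 4.07, 6.64 and 8.27 in M animals and of 6.01, 7.06 and 8.46 in H animals. The 3 diets overlapped, and the low values came from 1 L animal and 2 M animals. The difference was 0.20 ± 0.68 (log2, ± SE) for H against L, -0.52 ± 0.68 for M against L and 0.71 ± 0.66 for H against M. The adjusted p in limma, by Benjamini-Hochberg over all 22127 probe sets, was 0.977 for H against L and 0.931 for H against M. ITGA2B (SNOWBALL_014343_s_st) ran from 4.71 over a median of 6.36 to 7.08 in L animals, from 4.46 over 5.91 to 7.24 in M animals and from 5.34 over 6.19 to 7.22 in H animals. Its ranges overlapped as well, with a difference of 0.17 ± 0.44 for H against L and of 0.48 ± 0.43 for H against M (limma, adjusted p = 0.967 and 0.922).

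GP6, GP9 and GP1BB belong to the receptors that hold platelets to the vessel wall: GP6 binds collagen, while GP9 and GP1BB are subunits of the receptor for von Willebrand factor. GP6 (SNOWBALL_000995_st) reached 4.80, 5.96 and 6.85 as lowest, median and highest value in L animals, 4.56, 5.64 and 6.95 in M animals and 5.36, 5.89 and 6.43 in H animals. GP1BB (SNOWBALL_016758_st) reached 4.52, 5.82 and 6.32 in L animals, 4.84, 5.62 and 5.87 in M animals and 5.43, 5.72 and 6.43 in H animals. Both genes overlapped between the 3 diets, and their H against L differences were 0.02 ± 0.34 and 0.22 ± 0.25 (limma, adjusted p = 0.997 and 0.882). GP9 (SNOWBALL_021034_st) lay within 7.04 and 7.52 in L animals, 7.00 and 7.58 in M animals and 7.06 and 7.49 in H animals, with medians of 7.24, 7.37 and 7.27 in this order. Its values for the 3 diets nearly coincided, and the difference for H against L was -0.03 ± 0.12, with a 95% confidence interval from -0.29 to 0.23. Another pair of probe sets carries the symbol GPIBB, which RefSeq lists as an older name of GP1BB. They were not counted as members. They correlated with GP1BB over the animals at r = 0.72 and 0.79 and with PPBP at r = 0.56 and 0.68.

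Of the granule proteins, PPBP is the precursor of chemokines that platelets release, and it is among the most abundant platelet transcripts in humans. PPBP (SNOWBALL_006916_st) showed a lowest, median and highest value of 3.31, 6.97 and 8.33 in L animals, 3.73, 6.85 and 8.47 in M animals and 6.03, 7.15 and 8.54 in H animals. The medians were close, and the diets differed mainly in their low ends: L animal 13 had 3.31, and M animals 20 and 14 had 3.73 and 4.60. The difference was 0.57 ± 0.72 for H against L (95% confidence interval -0.92 to 2.07, limma adjusted p = 0.895). Without L animal 13 it was -0.02. For H against M it was 0.81 ± 0.69 (limma, adjusted p = 0.918), and for M against L -0.23 ± 0.72.

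SELP, an adhesion protein of the granule membrane that activated platelets present to leukocytes and that endothelium also makes, was measured by SNOWBALL_006130_s_st. It had 5.01, 6.50 and 7.46 as lowest, median and highest value in L animals, 5.01, 6.04 and 7.64 in M animals and 5.45, 6.12 and 7.16 in H animals. The ranges overlapped nearly in full, and the H against L difference was -0.08 ± 0.41 (limma, adjusted p = 0.983). M animal 1 was the highest of all 20 animals and stood apart from the other M animals, of which the next had 6.14.

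THBS1 is an adhesive glycoprotein of platelet granules that monocytes and other cells make as well. THBS1 (SNOWBALL_000039_st) had 8.0, 9.83 and 10.44 as lowest, median and highest value in L animals, 9.19, 9.51 and 10.11 in M animals and 9.37, 9.99 and 10.76 in H animals. L animal 15 alone lay below the M and H animals, and the remaining values overlapped. The H against L difference was 0.35 ± 0.29 (limma, adjusted p = 0.810) and was 0.02 without L animal 15. THBS1 has a second probe set, whose values were only weakly related to the main one (r = 0.21) and gave a difference of -0.27 ± 0.32 for H against L.

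F13A1, the catalytic chain of the factor that crosslinks fibrin, is found in the cytoplasm of platelets and also in monocytes and macrophages. F13A1 (SNOWBALL_001027_st) had 8.72, 10.35 and 11.02 as lowest, median and highest value in L animals, 8.42, 9.88 and 10.99 in M animals and 9.99, 10.46 and 11.36 in H animals. The H animals lay in the upper part of the range and overlapped with both other diets. F13A1 had the smallest p-values of the 10 genes in the comparisons with H, with differences of 0.50 ± 0.40 for H against L (limma, adjusted p = 0.802) and 0.62 ± 0.38 for H against M (adjusted p = 0.840).

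TUBB1 encodes the beta tubulin of the microtubule ring that keeps platelets disc-shaped. TUBB1 (SNOWBALL_000574_st) had 5.10, 7.85 and 8.91 as lowest, median and highest value in L animals, 4.96, 7.47 and 9.17 in M animals and 6.67, 7.93 and 8.53 in H animals. The highest and the lowest value of all animals were both from the M diet. The differences were 0.19 ± 0.61 for H against L, -0.35 ± 0.61 for M against L, and 0.55 ± 0.59 for H against M (limma, adjusted p = 0.937 for H against M).

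None of the 10 genes was called in any of the 3 comparisons, where a call needed p below 0.01 and a Storey q below 0.21. For H against L the rule called 6 probe sets, 0.0271% of all tested, for H against M 5 (0.0226%) and for M against L 0 (0%). At an unadjusted p below 0.05 it was again 0 of 10 genes in each comparison, against 8.57% of all probe sets for H against L, 6.74% for H against M and 2.26% for M against L. After Benjamini-Hochberg adjustment in limma, 0 of all probe sets had an adjusted p below 0.05 in any comparison. The exact permutation test over all 1716 assignments of the H and L animals (two-sided) gave p-values from 0.274 to 0.929 for the 10 genes. For H against L, 2 of the 10 genes lay below 0, compared with 54.1% of all probe sets, and their median was 0.20, against -0.02 over all probe sets. For M against L, 8 lay below 0 (54.1% of all probe sets), with a median of -0.27, against -0.01 over all probe sets. For H against M, 1 lay below 0 (50.8% of all probe sets), with a median of 0.42, against 0.00 over all probe sets. These directions are not independent between genes, since most of the genes moved together from animal to animal, and each pair of comparisons shares a diet. The confidence intervals were wide: that of ITGB3 for H against L ran from -1.21 to 1.61.

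**Figure D2:**
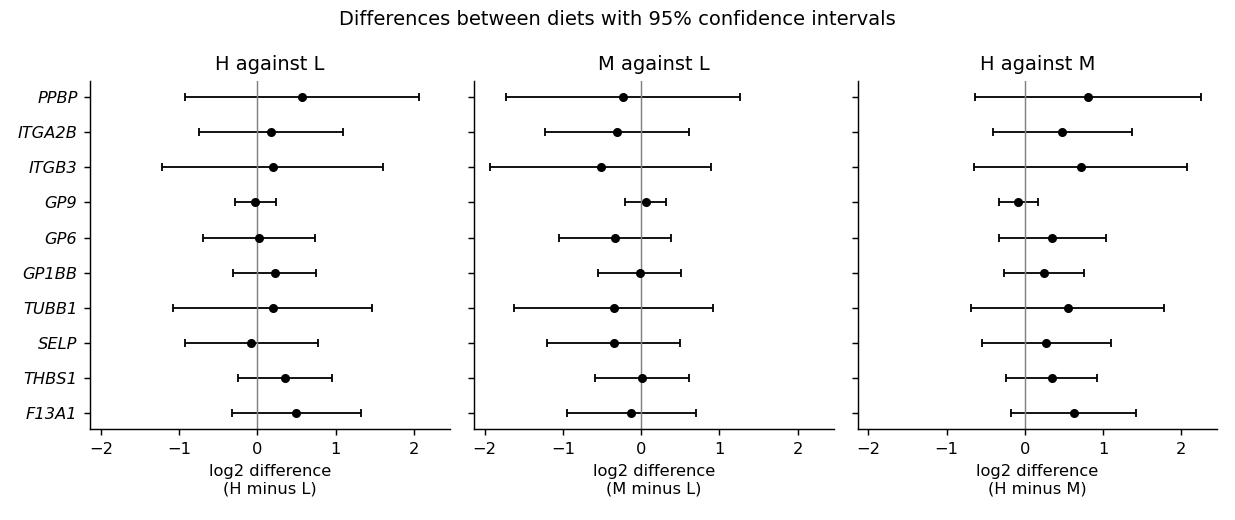
Log2 difference of each platelet gene in 3 panels (H against L, then M against L, then H against M), with 95% confidence intervals from limma. Points right of 0 are higher in the diet named first. Every interval includes 0, and those of PPBP are the widest, with -0.92 to 2.07 for H against L and -1.73 to 1.26 for M against L.

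No difference between the sexes passed for the platelet genes. Of the 10 genes, 0 passed an unadjusted p of 0.05 for males against females, compared with 2.68% of all probe sets (limma). PPBP was 0.83 ± 0.58 higher in males than in females, which was the largest of these differences, and the 3 animals with the lowest PPBP were all females. The interaction of H against L with sex passed an unadjusted 0.05 for 0 of the 10 genes, against 5.12% of all probe sets (limma).

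The spread between animals was the main feature of these genes. Over the 20 animals the SD was 1.48 for PPBP, 1.36 for ITGB3 and 1.21 for TUBB1 on the log2 scale, whereas the median SD of the 14681 named probe sets that passed the filter was 0.27. By SD, PPBP held rank 9 of these, ITGB3 rank 18 and TUBB1 rank 30. ITGA2B (0.86), F13A1 (0.80), SELP (0.78) and GP6 (0.66) also lay above the 95th percentile of 0.57, so that 7 of the 10 genes did. THBS1 (0.56) and GP1BB (0.50) lay just below, at percentiles 94.7 and 92.2. Among named probe sets with a mean within 0.5 log2 of their own, THBS1 lay at percentile 85.5, GP1BB at 93.2 and F13A1 at 96.1. GP9 stood on the other side, with an SD of 0.19 at the 14.9th percentile. Diet and sex together took up 3.63% (GP9) to 15.8% (PPBP) of the variance of the 10 genes, with a median of 9.63%, against a median of 11.9% over all named probe sets. These shares are not corrected for the number of terms in the fit, which take up some variance even without an effect.

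**Figure D3:**
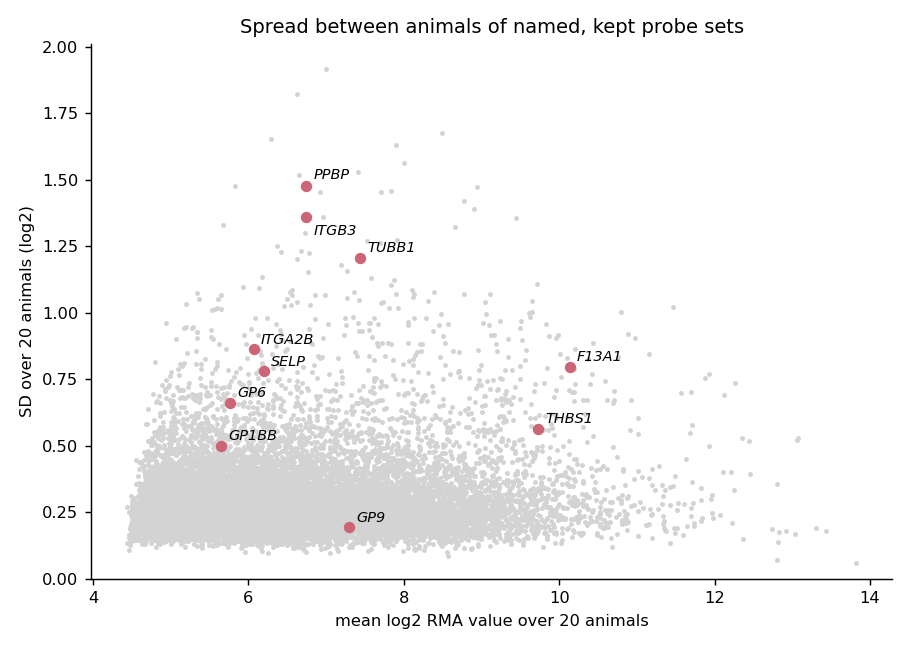
Standard deviation over the 20 animals against the mean log2 RMA value for each named probe set that passed the filter (grey) and for the main probe sets of the platelet genes (red). PPBP, ITGB3 and TUBB1, with SDs of 1.48, 1.36 and 1.21, lie near the top of the grey points, and GP9 lies within its lower part at 0.19.

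Within diets the SD of PPBP was 1.83 in L animals, 1.61 in M animals and 1.0 in H animals, and that of ITGB3 was 1.79, 1.42 and 0.89 in the same order. The SD was lower in H than in L animals for all 10 genes and lower in H than in M animals for 9 of them, the exception being THBS1. These counts are not independent between genes, and the share over all probe sets was not counted. The difference between these SDs was not tested, and the 3 animals with the lowest PPBP were all on the L and M diets. They were L animal 13, M animal 20 and M animal 14. The same 3 were the lowest for 4 other genes, namely ITGA2B, ITGB3, GP6 and TUBB1. For GP1BB, SELP and F13A1, 2 of them were among the lowest 3, and for GP9 and THBS1 1 of them was. L animal 15 was the fourth low animal: it had the lowest THBS1 of all animals and the second lowest GP1BB, SELP and F13A1, but ranked 6 from the bottom for PPBP. At the upper end, M animal 1 had the highest ITGA2B, GP6, TUBB1 and SELP, and H animal 12 the highest PPBP and F13A1. Over the other 17 animals the SD of PPBP was still 0.86 and that of ITGB3 0.89, both at or near the 99th percentile of named probe sets (98.9 and 99.03).

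**Figure D4:**
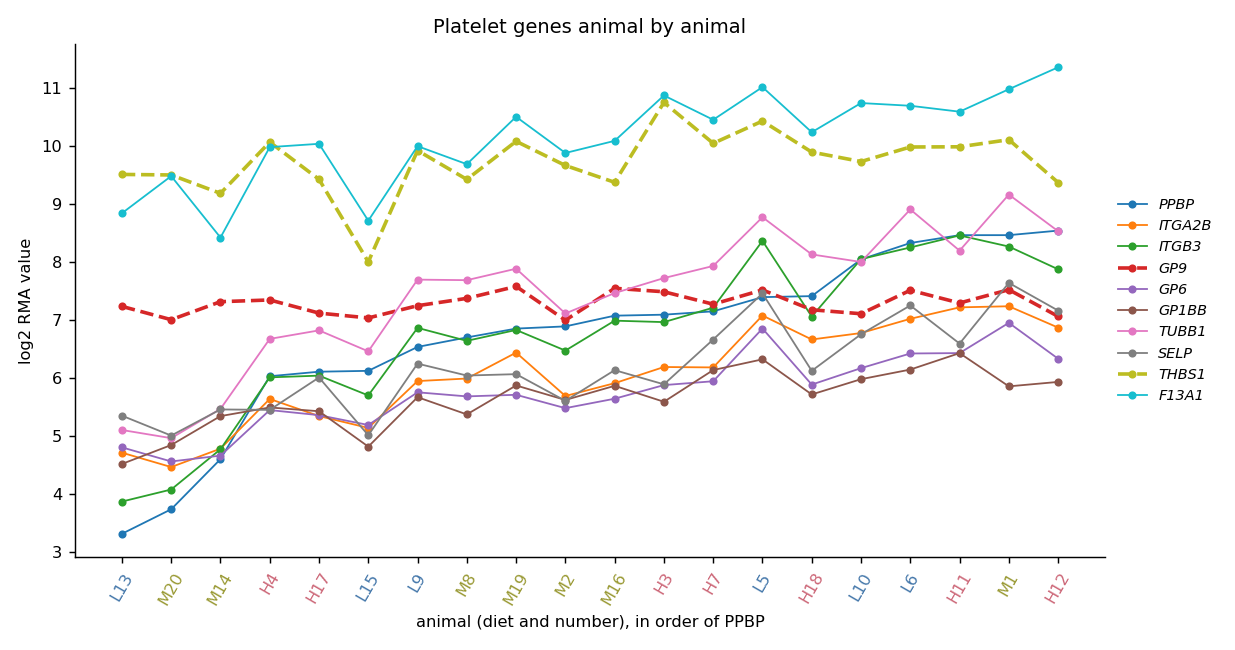
Log2 RMA value of the main probe set of each platelet gene (lines) in the 20 animals, which are ordered from the lowest to the highest PPBP. Animals are named by diet and number, and GP9 and THBS1 are dashed. ITGB3, TUBB1, ITGA2B, GP6, SELP, GP1BB and F13A1 climb with PPBP, while GP9 stays between 7.00 and 7.58.

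The platelet genes varied together over the animals. Pearson's r was above 0 for all 45 pairs of genes (0.28 to 0.97, median 0.83), and 35 pairs had an adjusted p below 0.05 (permutation test with 100000 resamples, two-sided, Benjamini-Hochberg over 45 pairs). Spearman's rho also gave 35 pairs. The closest pair was PPBP and ITGB3 (r = 0.97, rho = 0.94, permutation p = 0.00001, the smallest that the permutations can give, adjusted p = 2.05e-05), and without the 2 animals farthest from the median of PPBP r was 0.94. The chains of the fibrinogen receptor, ITGA2B and ITGB3, had r = 0.97 and rho = 0.95, and PPBP and TUBB1 had r = 0.95 and rho = 0.94. Without 2 animals for each pair, those farthest from the median of the first gene, 34 of 45 pairs had an adjusted p below 0.05, as did 34 without the 3 low animals. After removal of diet and sex it was 42 pairs. Since animals of a litter may resemble each other, these p-values may be too small. The share of litter was not tested.

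A group of 7 genes, picked after the values were seen, held close together: PPBP, ITGA2B, ITGB3, GP6, GP1BB, TUBB1 and SELP. Their r ran from 0.80 to 0.97, with a median of 0.91. Within diets the same pairs had r of 0.76 to 0.99 in L animals, 0.71 to 0.995 in M animals and 0.67 to 0.99 in H animals. F13A1 followed them nearly as closely, with r of 0.79 to 0.87, but less so within H animals (0.40 to 0.78). With the mean standardized level of the other platelet genes F13A1 had r = 0.88 and PPBP 0.88, so the border of the group is not sharp. The change that went with a change of PPBP was not equal: per log2 unit of PPBP, ITGB3 changed by 0.89 ± 0.05 (SE), TUBB1 by 0.78 ± 0.06, ITGA2B by 0.54 ± 0.05, F13A1 by 0.44 ± 0.07, SELP by 0.42 ± 0.08, GP6 by 0.40 ± 0.05 and GP1BB by 0.29 ± 0.04. Probe sets differ in how far their signal follows the amount of RNA, and the part of this in the slopes was not tested.

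THBS1 and GP9 followed the others less closely over all animals, a difference that was not itself tested, and the 10 pairs that did not pass all held one of them. THBS1 had r of 0.34 (PPBP) to 0.56 (GP1BB) with the 7 genes, and its pairs with PPBP and ITGB3 had adjusted permutation p-values of 0.147 and 0.0544. Its highest r was with F13A1 (r = 0.67, rho = 0.59, adjusted permutation p = 0.00155). Within diets that r was 0.80 in L, 0.86 in M and -0.003 in H animals. Within diets the r of THBS1 with the 7 genes were 0.33 to 0.84 in L animals, 0.53 to 0.76 in M animals and -0.46 to 0.00 in H animals. GP9 had r of 0.28 (PPBP) to 0.54 (THBS1) with the other genes, and 8 of its 9 pairs did not pass. The exception was GP9 with THBS1 (r = 0.54, rho = 0.52, adjusted permutation p = 0.0135). After removal of diet and sex, 7 of the 9 pairs of GP9 passed (r of 0.36 to 0.63), and after each array was centred on its median 5 did. Over all pairs, 40 of 45 passed after centring. Within diets the r of GP9 with the other genes were 0.33 to 0.77 in L animals and 0.34 to 0.72 in M animals. In H animals only 1 of the 9 was above 0, that with THBS1, and the lowest was -0.54. The r of GP9 with THBS1 was 0.77 in L, 0.34 in M and 0.96 in H animals. GP9 also had the highest r of the 10 genes with the background level of the array (r = 0.43, the others -0.02 to 0.24). This level was the median of 69 background control probe sets. GP9 was also highest with the mean of 7 megakaryocyte factors (r = 0.59) and with that of 8 endothelial markers (r = 0.56). The part of these in the GP9 values was not tested.

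**Figure D5:**
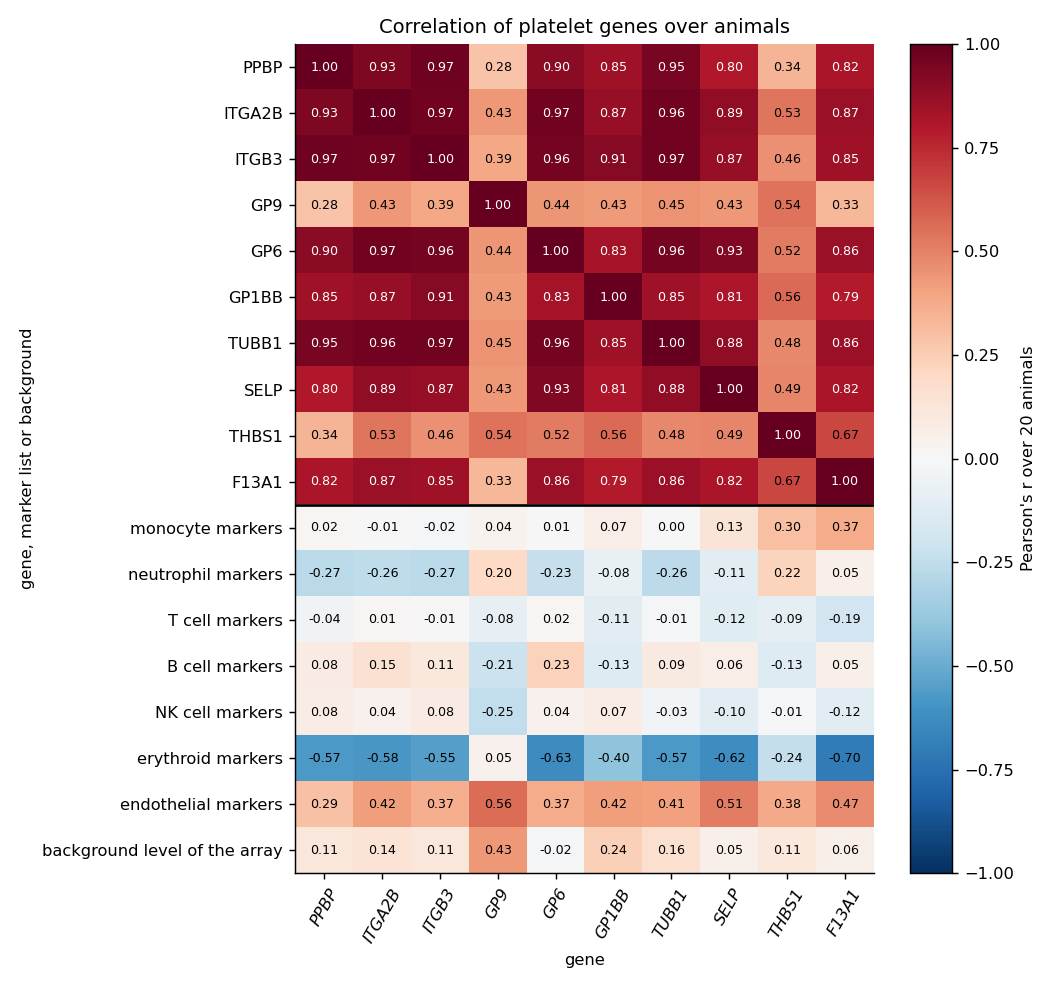
Pearson's r over the 20 animals between the platelet genes (upper block) and of each platelet gene with the mean level of the marker lists of other cells and the background level of the array (lower rows). The r between PPBP, ITGA2B, ITGB3, GP6, GP1BB, TUBB1 and SELP are 0.80 to 0.97, those of GP9 and THBS1 are lower, and all genes but GP9 have r below 0 with the erythroid markers.

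Further probe sets of the same genes followed the main one to different degrees. The second probe sets of ITGB3, F13A1, SELP and ITGA2B had r of 0.99, 0.98, 0.94 and 0.90 with the main probe set over the animals. That of ITGA2B lay below the filter. TUBB1 had 3 further probe sets, of which 2 lay below the filter (r = 0.68 and 0.34). One of those below the filter was named for a bovine microRNA. The third agreed only loosely with the main one (r = 0.47, SD 0.35). It gave 0.23 ± 0.19 for M against L and -0.21 ± 0.18 for H against M, opposite in sign to the main one (-0.35 and 0.55). For H against L it gave 0.02 ± 0.19, against 0.19. With the mean over all probe sets of a gene, 34 of 45 pairs of genes passed.

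On the lists of other platelet genes, 4 of 44 tested genes passed an unadjusted p of 0.05 for H against L (9.09%), 3 for H against M (6.82%) and 1 for M against L (2.27%), close to the shares over all probe sets of 8.57%, 6.74% and 2.26%. Of the 13 listed receptors 7 could be tested, of 16 granule proteins 9, of 17 signalling proteins 9, of 13 cytoskeletal proteins 12 and of 13 megakaryocyte transcription and maturation factors 7. At an unadjusted p below 0.05 the receptor list held 1 gene that was lower in H than in L animals, JAM3, a junctional adhesion molecule (-0.47 ± 0.18, limma adjusted p = 0.507). JAM3 was also lower in M than in L animals (-0.51 ± 0.18). Of the signalling list 2 genes were higher in H than in L animals, namely P2RY1, an ADP receptor of platelets (0.60 ± 0.22, limma adjusted p = 0.478), and MCTP1 (0.68 ± 0.24, limma adjusted p = 0.478). Both were also higher in H than in M animals (0.51 ± 0.21 and 0.67 ± 0.23). Coagulation factor F5 was higher in H than in M animals (0.53 ± 0.21, limma adjusted p = 0.673), and VPS33B, which is needed for granule formation, was lower in H than in L animals (-0.35 ± 0.16, limma adjusted p = 0.551). These genes passed the unadjusted p alone, and none was called. The medians of the lists for H against L were -0.01 for receptors, 0.07 for granule proteins, 0.28 for signalling proteins, 0.15 for cytoskeletal proteins and 0.06 for the factors.

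Between animals, by contrast, several genes of these lists followed the platelet genes. As a description, each gene was correlated with the mean standardized level of the 10 genes over the 20 animals. Of the 44 genes of the other lists, 12 had r above 0.8 (27.3%), compared with 51 of the 9361 named genes outside the 10 (0.545%). These 12 were the collagen receptor chain ITGA2 (0.95) and the receptor CLEC1B (0.91), the granule proteins CLU (0.95) and VWF (0.92), the G protein subunits GNAZ (0.88) and GNG11 (0.88), and 6 of the 12 tested genes of the cytoskeletal list, TMEM40 (0.95), PDLIM1 (0.94), MYL9 (0.92), TPM4 (0.90), MYLK (0.89) and TLN1 (0.81). GP1BA, the partner of GP1BB in the receptor for von Willebrand factor, had r = 0.87 but lay below the filter, and GP5, another part of this receptor, had r = 0.75. The 4 listed receptors below the filter, GP1BA among them, ran from -0.14 (CD36) to 0.87. PF4 was not analysed here. Of the 7 megakaryocyte factors, 0 had r above 0.8 (-0.38 to 0.37). Over all 44 genes r ran from -0.45 (P2RY12, another ADP receptor) to 0.95, with a median of 0.38. The next lowest were SRGN (-0.40), RUNX1 (-0.38) and CD9 (-0.32), so that not all listed platelet genes followed.

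Outside all lists, the 10 genes most like the platelet genes, of 9259 ranked, had r of 0.91 to 0.97 with that mean level. FHL1, a LIM domain protein, came first (0.97), and FHL1C, which RefSeq lists as another name of FHL1, had r = 0.95. LOC100158011, for which RefSeq gives the synonym aprotinin, had r = 0.96. NCK2, an adaptor protein (0.94), HEPH, a copper-dependent ferroxidase (0.94), SLC6A4, the serotonin transporter (0.93), and CALD1, an actin-binding protein (0.93), followed, and then SH3BGRL2 (0.92), TMSB15A, a thymosin (0.92), and C7orf41 (0.91). LOC100158011 ran from 5.94 to 10.7 and CALD1 from 4.52 to 9.32 over the animals. CALD1 and TMSB15A were closer to PPBP (both r = 0.97) than to the mean of the 10 genes.

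The list means of monocyte, neutrophil and lymphocyte markers had r near 0 with the mean level of the platelet genes over the animals. The mean of the 10 genes had r = 0.10 with 9 monocyte markers, -0.11 with 8 neutrophil markers, -0.07 with 11 T cell markers, 0.03 with 8 B cell markers and -0.02 with 7 NK cell markers. Single markers went further in both directions, with r of -0.27 to 0.58 for the monocyte list and -0.53 to 0.22 for the T cell list. With the neutrophil list PPBP, ITGA2B, ITGB3, GP6 and TUBB1 had r of -0.27 to -0.23. GP9, THBS1 and F13A1 had r of 0.05 to 0.22 with it, and GP1BB and SELP lay between. F13A1 (0.37) and THBS1 (0.30) had the highest r with the monocyte markers. With 7 erythroid markers the mean of the 10 genes had r = -0.56. With 8 endothelial markers it had r = 0.48, and of these only KDR, a receptor for vascular endothelial growth factor, reached r above 0.8 (0.86). Of all 58 markers of other cells, KDR was the 1 above 0.8.

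Several markers of other cells differed in level between diets at an unadjusted p. The monocyte markers averaged 8.54 ± 0.47 in L, 8.75 ± 0.40 in M and 9.30 ± 0.52 in H animals (mean ± SD of the list's mean). At an unadjusted p below 0.05 (limma), 6 of the 9 were higher in H than in L animals. Of all 22127 probe sets 8.57% passed in either direction, 1000 of them as higher in H and 897 as lower. The neutrophil markers averaged 7.83 ± 0.51, 8.20 ± 0.58 and 8.68 ± 0.56 in the same order. Of these 8, 7 lay above 0 for H against L, 5 of them at an unadjusted p below 0.05. The list means of single animals ran from 7.82 to 9.19 in L, 8.22 to 9.39 in M and 8.62 to 9.89 in H animals for monocytes, and from 7.35 to 8.77, 7.24 to 8.96 and 7.96 to 9.29 for neutrophils. Of the T cell markers 10 of 11 lay below 0 for H against L, 4 of them at an unadjusted p below 0.05. The erythroid markers averaged 10.5 ± 0.6 in L, 10.7 ± 0.5 in M and 10.1 ± 0.7 in H animals. All 7 lay below 0 for H against M, 3 of them at an unadjusted p below 0.05. Of all probe sets 6.74% passed in either direction, 667 of them as lower in H than in M. With the monocyte and neutrophil levels as covariates, the difference of F13A1 for H against L was 0.13 in place of 0.50. That of PPBP was 0.85 in place of 0.57, that of ITGB3 0.42 in place of 0.20 and that of SELP -0.32 in place of -0.08. None of these passed. As the covariates differed between the diets themselves, their part and that of diet cannot be told apart. The part of the blood cell composition in the platelet gene values was not tested otherwise.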

How the data were processed

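The authors read the arrays with GCOS 1.1.1 and normalized them by RMA, and the deposited log2 values of 20 arrays were used as given. Quantile normalization within RMA removes shifts shared by all transcripts. In the study's methods 1 array had failed quality control. The filter for present probe sets was replaced by the array median on 16 of 20 arrays, and 123 control probe sets were left out. Symbols were those of the platform annotation (26426 probe sets with 1 symbol, 21419 with none), and no coordinates were used. A single limma 3.58.1 fit (R 4.3.3) held the 3 diets, with sex as covariate. The methods also used litter, which is not in the labels. Storey q-values were computed by a smoother over all 22127 probe sets. Correlations were computed in Python 3.11.15 (numpy 2.4.6, scipy 1.17.1). Scripts were tested on simulated data. Members and lists were chosen with earlier results of these data known. Named were the 10 genes, genes of the other platelet lists at an unadjusted p below 0.05 (up to 4 a list), PF4, GP1BA and GP5, and the 10 most similar genes outside the lists. Genes with r above 0.8, the genes of lowest r on the other platelet lists, CD36 and GPIBB were named after their values were seen. The limma p-values set a difference against a shared estimate of the spread between animals, so the number of arrays limits the precision.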

Additional observations from a re-analysis of the deposited data

Results flagged for a closer look

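SELP in M animal 1 stood apart from the other M animals. Its log2 value was 7.64, the next M animal had 6.14, and this gap took up 0.572 of the range of the 7 animals, just past the critical value of 0.568 of Dixon's test. Of 30 sets of values (10 genes in 3 diets) this was the 1 that passed, and chance passes about 1 in 20. The same animal had the highest ITGA2B, GP6 and TUBB1 of all 20 animals.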

How the results depend on the processing

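The count of called platelet genes was 0 in all 3 comparisons under every setting run. The count at an unadjusted p below 0.05 was 0 except for H against M, where array weights gave 2 (THBS1, 0.58, and F13A1, 0.81, limma adjusted p = 0.428 and 0.402, with 10.8% of all probe sets past 0.05) and leaving out 1 animal gave 0 to 1 (F13A1 without M animal 1, 0.81, adjusted p = 0.630, with 7.69% of all probe sets). The count of correlated pairs was 34 to 42 under other settings and 32 to 43 without 1 animal, and 7 or 8 genes lay above the 95th percentile of SD. Without the 3 low animals it was 7, with THBS1 above it and GP6 below (percentiles 95.3 and 92.1). The sign of single uncalled differences was not stable. For GP9, array weights gave 0.043 for H minus L, -0.043 for M minus L and 0.086 for H minus M, and for THBS1 -0.11 for M minus L. The mean of all probe sets gave -0.020 (H against L) for TUBB1 and -0.16 (M against L) for THBS1. Monocyte and neutrophil covariates gave for M against L 0.10 (PPBP), 0.035 (GP1BB) and -0.020 (THBS1), and for H against M -0.014 (SELP). The background level as a covariate, chosen after seeing the data, gave -0.027 (THBS1, M against L). Without 1 animal, H against L ran from -0.016 to 0.95 (PPBP), -0.089 to 0.39 (ITGA2B), -0.35 to 0.57 (ITGB3), -0.081 to 0.025 (GP9), -0.18 to 0.24 (GP6), -0.25 to 0.50 (TUBB1) and -0.38 to 0.15 (SELP). M against L ran from -0.88 to 0.18 (PPBP), -0.22 to 0.18 (GP1BB), -0.30 to 0.18 (THBS1) and -0.40 to 0.11 (F13A1). No paired analysis was possible, because each animal had 1 array and the labels do not give its litter. With 6 or 7 animals a diet, the confidence intervals of ITGB3 for H against L and of PPBP for M against L reach past 1 log2 unit on both sides of 0.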
